A study of Mus musculus with 18 samples.

Results

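The genes described here encode 7 subunits of the GABA-A receptor: Gabra2, Gabra3, Gabra4 and Gabra5 (alpha subunits), Gabrb1 and Gabrb2 (beta subunits) and Gabrg1 (a gamma subunit). They were found by symbol in count files that each list 23420 genes. All 7 were present in each file, and all 7 passed the filter on low counts that 17166 genes passed.

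RNA was sequenced from E14, 1 wild type mouse embryonic stem (ES) cell line, and from cells differentiated from it, in 18 libraries that form 9 groups of 2. Undifferentiated ES cells were grown without feeders in medium with leukaemia inhibitory factor and received, for 24 h, both ligands, GW3965 alone, LG268 alone or no ligand (the ES control). GW3965 is an agonist of the liver X receptors, LG268 is an agonist of their partner, the retinoid X receptor, each was used at 1 µM, and DMSO was the vehicle. The other groups were differentiated through embryoid bodies with 5 µM all-trans retinoic acid over 4 days, plated in N2 medium, and collected at day 8, at day 16 with GW3965, at day 16 without ligand, at day 17 with GW3965 and at day 17 without ligand. Every differentiated group had therefore received retinoic acid. The labels do not state how long GW3965 was present at days 16 and 17. By the wording of their file names, exposure began at day 8 for the day 16 group and lasted 24 h for the day 17 group, so a difference in day cannot be told apart from one in exposure. The files of the both-ligand ES group carry the word for control in their names, whereas the labels give both ligands. The labels were followed, and the both-ligand values rest on them. The labels name the source of all libraries as embryonic stem cells and do not say whether the 2 libraries of a group came from separate cultures, so p-values measure only the spread between these libraries, which may be technical.

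GABA-A receptors are chloride channels opened by the transmitter GABA. Each channel is a ring of 5 subunits, most often of alpha, beta and gamma kinds. GABA binds where a beta subunit meets an alpha subunit, and benzodiazepines bind where an alpha subunit meets a gamma subunit. The alpha subunit present sets much of the receptor's location and kinetics. The alpha2, alpha3 and alpha5 subunits are abundant in the immature brain. In young neurons a high internal chloride level makes these channels depolarising, and the transporter KCC2 (Slc12a5) later lowers that level.

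Gene counts per library totalled 16.749 to 44.789 M reads (median 23.513 M). Levels are given as CPM, the reads of a gene divided by the TMM-scaled library size in M reads. ES marker genes (7 genes) summed to 55.6 to 169 CPM in the differentiated libraries and to 2383 to 2614 CPM in the ES libraries. The 10 pan-neuronal genes summed to 1512 to 3755 CPM in the differentiated libraries and to 411 to 514 CPM in the ES libraries. The differentiated cultures also held mesenchyme genes (5 genes, 1403 to 11034 CPM) and astrocyte genes (5 genes, 95.6 to 2909 CPM). Endoderm genes (4 genes) summed to 129 to 253 CPM there, so the cultures were mixed. The 2 libraries with GW3965 at day 16 stood further apart than those of any other group (chi-square per gene of 39.9, against 2.74 to 9.67). This value is a mean over the tested genes and does not give the spread of the 7 genes alone. In bulk RNA, fewer cells of a type and less RNA per cell cannot be told apart. Only the day 17 libraries list reads that aligned more than once (31.837 to 33.529% of each file, 0 in the other 14), so a change between day 17 and an earlier day cannot be told apart from this difference in processing.

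In GRCm38, 4 of the 7 genes lie within 1398 kb of chromosome 5, in the order Gabrg1 (chr5:70751047-70842617, minus strand), Gabra2 (chr5:70957597-71095849, minus strand), Gabra4 (chr5:71569749-71658308, minus strand) and Gabrb1 (chr5:71658113-72149037, plus strand). Gabra4 and Gabrb1 are head to head, and the 2 gene spans share 196 bases, of which 46 are exonic in both. Gabrb2 is on chromosome 11 (chr11:42419757-42629028, plus strand), Gabra5 on chromosome 7 (chr7:57407672-57510059, minus strand) and Gabra3 on chromosome X (chrX:72432681-72656848, minus strand). Because the counting is not stated to have used strand, reads from the shared bases of Gabra4 and Gabrb1 cannot be told apart, nor can those from the 148 exonic bases that Gabra5 shares with the antisense gene Gm9962.

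RefSeq start sites gave 11 promoter windows of 300 bases (250 before the start to 50 after it, GRCm38.p6) for the 7 genes. The windows of the chromosome 5 cluster and of Gabrb2 are shown because the cluster genes lie side by side, while Gabrb2 was near its later level by day 8. Sequences run 5′ to 3′ on the gene's strand, and capitals mark every match to the 4 motifs searched on both strands: AGGTCA (the core motif of nuclear receptor elements), TATAAA (the TATA box), GGGCGG (the GC box) and CAGCTG (an E-box, the same on both strands). In the order of the genes along the cluster, with Gabrb2 last, the windows read:
Gabrg1 (chr5:70842568-70842867, minus strand): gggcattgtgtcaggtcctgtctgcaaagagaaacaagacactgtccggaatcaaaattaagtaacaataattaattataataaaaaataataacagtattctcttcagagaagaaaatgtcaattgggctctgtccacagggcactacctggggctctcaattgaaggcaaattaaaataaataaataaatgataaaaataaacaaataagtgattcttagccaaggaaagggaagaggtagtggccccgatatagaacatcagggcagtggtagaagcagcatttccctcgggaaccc
Gabra2 (chr5:71095800-71096099, minus strand): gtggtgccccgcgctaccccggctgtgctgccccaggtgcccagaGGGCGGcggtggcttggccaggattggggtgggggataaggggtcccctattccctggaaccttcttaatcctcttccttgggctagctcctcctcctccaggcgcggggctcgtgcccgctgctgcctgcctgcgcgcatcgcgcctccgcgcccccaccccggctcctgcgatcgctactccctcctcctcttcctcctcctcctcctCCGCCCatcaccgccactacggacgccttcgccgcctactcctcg
Gabra4 (chr5:71658259-71658558, minus strand): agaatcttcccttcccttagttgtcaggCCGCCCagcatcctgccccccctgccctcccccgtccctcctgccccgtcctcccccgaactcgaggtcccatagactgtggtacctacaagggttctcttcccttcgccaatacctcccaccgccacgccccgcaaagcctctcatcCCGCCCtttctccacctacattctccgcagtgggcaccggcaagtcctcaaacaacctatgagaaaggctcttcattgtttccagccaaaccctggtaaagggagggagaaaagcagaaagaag
Gabrb1 (chr5:71657671-71657970, plus strand): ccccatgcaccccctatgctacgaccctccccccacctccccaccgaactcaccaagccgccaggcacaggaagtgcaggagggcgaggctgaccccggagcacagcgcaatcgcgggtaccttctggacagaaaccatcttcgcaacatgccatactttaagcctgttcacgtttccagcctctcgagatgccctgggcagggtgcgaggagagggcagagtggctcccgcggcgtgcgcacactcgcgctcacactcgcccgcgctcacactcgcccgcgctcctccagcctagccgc
Gabrb2 (chr11:42420190-42420489, plus strand): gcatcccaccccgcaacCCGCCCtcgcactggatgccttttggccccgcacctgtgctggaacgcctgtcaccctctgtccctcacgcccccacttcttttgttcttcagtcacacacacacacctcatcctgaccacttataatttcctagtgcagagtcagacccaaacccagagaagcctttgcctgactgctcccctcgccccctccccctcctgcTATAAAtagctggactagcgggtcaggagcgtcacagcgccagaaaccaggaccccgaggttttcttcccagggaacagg

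The GC box occurred 2 times in each of the Gabra2 and Gabra4 windows and once in the Gabrb2 window shown, and 35.7% of 32851 promoter windows of the same length hold it. TATAAA occurred in the same Gabrb2 window. Its reverse form, TTTATA, was in both overlapping windows of Gabra3, where it is the same match. Either form was in 13.6% of all windows. AGGTCA, a pair of which makes up the usual element for liver X and retinoid X receptors, was in 0 of the 11 windows and in 16.3% of all windows. CAGCTG was likewise in 0 of the 11 and in 16.3% of all. The windows differed widely in CG pairs, with 25 for Gabra2 and for the first start of Gabrb1, 12 for Gabra4, 11 for Gabrb2, 3 for Gabrg1 and 0 for Gabra3, beside a median of 7 over all windows.

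**Figure D1:**
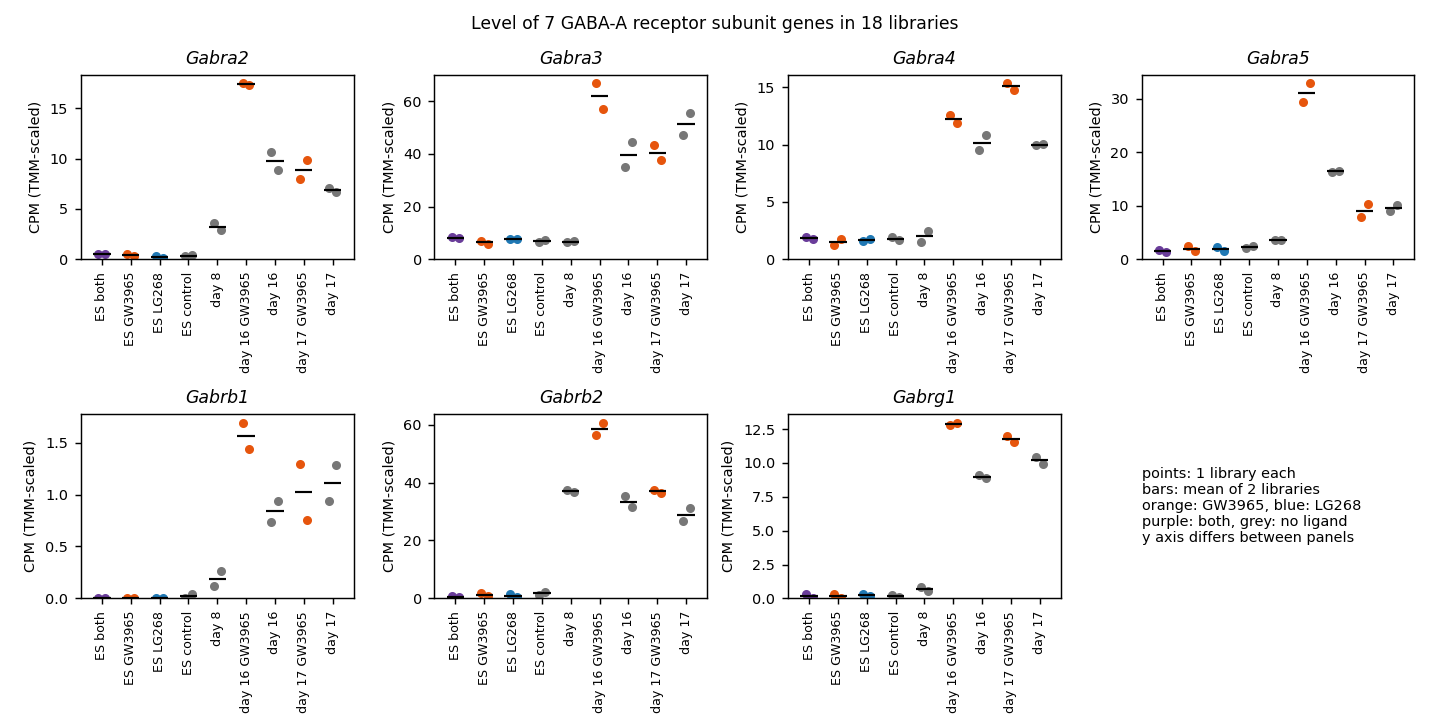
Level of each subunit gene in CPM (y axis, its own scale in each panel) in 18 libraries of 9 groups (x axis), where points are single libraries and bars are means of 2. Gabrb2 is near its later level by day 8, whereas Gabra3, Gabra4 and Gabrg1 are low at day 8 and high from day 16.

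The beta2 gene Gabrb2, whose product is part of the most widespread adult receptors, was already at its plateau on day 8. Its CPM were 1.32 and 2.21 in ES control, 37.3 and 36.7 at day 8, 35.2 and 31.4 at day 16 and 26.6 and 31.3 at day 17. No ES library overlapped a differentiated one. The beta1 gene Gabrb1 stayed the lowest member throughout. It had 0 and 1 reads in ES control, 3 and 8 reads at day 8, 18 and 34 reads at day 16 and 22 and 22 reads at day 17, which is 0.741 and 0.936 CPM at day 16. Its 6 ligand-treated ES libraries each had 0 reads, below the 3 counts that a library with 0 still allows.

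Among the alpha genes, Gabra2 rose at day 8 and again at day 16. This subunit is concentrated at the axon initial segment of forebrain principal neurons. Gabra2 had 0.308 and 0.395 CPM in ES control, 3.56 and 2.91 CPM at day 8, 10.7 and 8.84 CPM at day 16 and 7.09 and 6.71 CPM at day 17. Gabra3, whose product is common in embryonic brain and in brainstem nuclei, was flat between ES cells and day 8 and then rose steeply. Its CPM were 6.64 and 7.39 in ES control, 6.34 and 6.80 at day 8, 35.1 and 44.4 at day 16 and 47.3 and 55.6 at day 17. Both day 17 libraries without ligand lay above both day 16 libraries without ligand.

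Gabra4, whose product pairs with the delta subunit in receptors outside the synapse, was also low until day 8 and higher from day 16. Gabra4 had 1.89 and 1.66 CPM in ES control, 1.51 and 2.45 CPM at day 8, 9.51 and 10.8 CPM at day 16 and 9.95 and 10.03 CPM at day 17, and its ES and day 8 libraries overlapped. Gabra5, known for tonic inhibition in hippocampus, had its highest values at day 16. Its CPM were 2.02 and 2.45 in ES control, 3.48 and 3.66 at day 8, 16.3 and 16.5 at day 16 and 8.96 and 10.03 at day 17. Antisense Gm9962 had 23 and 18 reads at day 17, where Gabra5 had 210 and 172, and 38 and 72 reads at day 16, where Gabra5 had 395 and 600. With GW3965 at day 16, Gm9962 had 109 and 119 reads and Gabra5 had 971 and 1076.

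The gamma1 gene Gabrg1, whose product gives receptors with weak responses to many benzodiazepines, had its main rise after day 8. Gabrg1 had 0.264 and 0.119 CPM in ES control, 0.812 and 0.555 CPM at day 8, 9.10 and 8.89 CPM at day 16 and 10.5 and 9.91 CPM at day 17, on 6 and 3 reads in ES control. All 4 libraries without ligand at days 16 and 17 lay above every ES and day 8 library.

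Ranked per length (CPM per kb of exon), the order of levels changed between stages. In ES control Gabra3 was highest (1.79 ± 0.136 CPM per kb, SD, n = 2), ahead of Gabra5 (0.752 ± 0.102), then Gabra4 and Gabrb2, which overlapped between libraries, and Gabra2, Gabrg1 and Gabrb1 at most at 0.0517 CPM per kb in any library. At day 8 Gabrb2 led at 5.82 ± 0.0715 CPM per kb, above Gabra3 at 1.67 and Gabra5 at 1.17 and 1.23 in its 2 libraries. At day 16 without ligand the order was Gabra3 (10.1 ± 1.68), Gabra5 (5.51 ± 0.0624), Gabrb2 (5.24 ± 0.417), Gabra4 (1.67 ± 0.156), Gabra2 (1.28 ± 0.169), Gabrg1 (1.14 ± 0.0182) and Gabrb1 (0.0606 CPM per kb). The libraries of Gabra5 and Gabrb2 overlapped there, and Gabra2 and Gabrg1 differed by less than 1 SD of Gabra2. At day 17 Gabra3 led at 13.1 ± 1.51 CPM per kb, ahead of Gabrb2 (4.54 ± 0.523) and Gabra5 (3.19 ± 0.254).

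**Figure D2:**
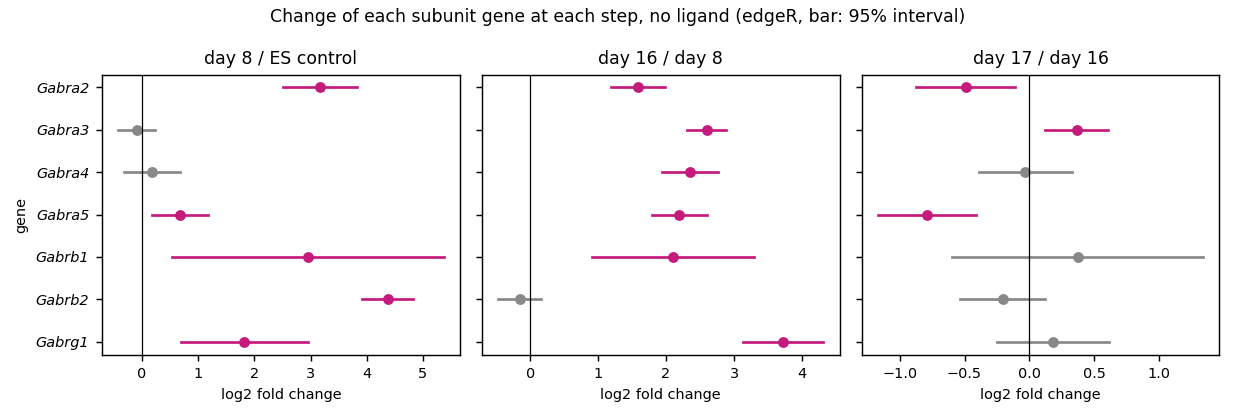
Log2 fold change of each gene at each step of differentiation without ligand (x axis), with points for the edgeR estimate, bars for its 95% interval, and magenta for an adjusted p below 0.05. The first step is led by Gabrb2 and Gabra2, and in the second step all genes but Gabrb2 lie right of 0.

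Between ES control and day 8, 5 of the 7 genes rose and 0 fell. In this comparison 39.7% of the tested genes rose and 39.1% fell (78.7% called in all). Gabrb2 rose 20.7-fold (log2 change 4.37 ± 0.221 SE, edgeR adjusted p = 2.68e-13) and Gabra2 rose as well (3.17 ± 0.313, adjusted p = 1.16e-08). Gabrg1 rose 3.54-fold (1.82 ± 0.540, adjusted p = 0.00458) and Gabra5 1.59-fold (0.67 ± 0.239, adjusted p = 0.0151). Gabrb1 passed the same edgeR test (adjusted p = 0.0275) on 11 reads at day 8 and 1 read in ES control, a ratio of 9.36 with a 95% counting interval of 1.36 to 403. Gabra3 (-0.09 ± 0.158, edgeR adjusted p = 0.594) and Gabra4 (0.18 ± 0.242, edgeR adjusted p = 0.511) did not pass. The call of Gabra5 was lost without ES control replicate 1 or day 8 replicate 2 (edgeR adjusted p = 0.105 and 0.0645), as was that of Gabrb1 (0.140 and 0.184), and the call of Gabrg1 was lost without ES control replicate 2 (0.0688). The fold of Gabrg1 was larger without ES control replicate 1, at a log2 change of 2.46.

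Between day 8 and day 16, 6 of the 7 genes rose and 0 fell, where 29.4% of the tested genes rose and 32.2% fell (61.6% in all). Gabrg1 rose 13.2-fold (3.73 ± 0.282, edgeR adjusted p = 9.21e-10). The alpha genes Gabra3, Gabra4, Gabra5 and Gabra2 rose 6.06-fold, 5.09-fold, 4.58-fold and 3.01-fold (log2 changes of 2.60 ± 0.136, 2.35 ± 0.198, 2.20 ± 0.194 and 1.59 ± 0.192, each with an edgeR adjusted p of 5.75e-07 or less). Gabrb1 rose 4.30-fold (2.10 ± 0.568, edgeR adjusted p = 0.00404), and without day 8 replicate 2 its log2 change was 2.79. Gabrb2 had a log2 change of -0.15 with a 95% interval of -0.47 to 0.17 (edgeR adjusted p = 0.396). The median log2 change of the 7 genes was 2.20, beside -0.04 over all tested genes.

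The summed level of the pan-neuronal genes moved the other way over the same 8 days, though not every gene did. The summed level of the 7 genes was 117 and 122 CPM at day 16 and 53.2 and 53.3 CPM at day 8. The 10 pan-neuronal genes summed to 1920 and 1887 CPM at day 16 and to 3696 and 3755 CPM at day 8. Of the 10 genes, 6 were lower and 2 higher at day 16. Dcx (log2 change -1.51) and Tubb3 (-1.23), markers of young neurons, were among the lower ones and weigh heavily in the sum. Syp, by contrast, averaged 94.5 CPM at day 16 and 63.9 CPM at day 8. Per 1000 CPM of pan-neuronal genes, the 7 subunit genes made 62.6 ± 2.76 CPM at day 16 and 14.3 ± 0.130 CPM at day 8 (SD, n = 2 each). Mesenchyme genes summed to 9605 and 11034 CPM at day 16 and to 1403 and 1666 CPM at day 8 (5 of 5 higher at day 16). Astrocyte genes summed to 756 and 807 CPM at day 16 and to 97.8 and 95.6 CPM at day 8 (4 of 5 higher at day 16). The part of these marker changes in the rise of the subunit genes was not tested.

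Between day 16 and day 17 without ligand, 1 of the 7 genes rose and 2 fell, where 26.8% of the tested genes rose and 29.5% fell (56.2% in all). Gabra5 fell by 0.79 ± 0.181 on the log2 scale (1.73-fold lower, edgeR adjusted p = 0.00086). Gabra2 fell by 0.49 ± 0.183 (1.41-fold lower, edgeR adjusted p = 0.0277) and Gabra3 rose by 0.36 ± 0.116 (1.29-fold, edgeR adjusted p = 0.0115). The call of Gabra2 was lost without day 16 replicate 1 (edgeR adjusted p = 0.216), day 17 replicate 1 (0.0819) or day 17 replicate 2 (0.111), and that of Gabra3 without day 16 replicate 1 (0.165) or day 17 replicate 2 (0.155). The other 4 genes had log2 changes of -0.21 to 0.37 and did not pass. Astrocyte genes summed to 2520 and 2909 CPM at day 17 and to 756 and 807 CPM at day 16 (3 of 5 higher, 2 lower at day 17). Among the 10 pan-neuronal genes 3 were lower and 0 higher at day 17, and among 7 neural progenitor genes 4 were lower and 1 higher. The part of these marker changes in the step was not tested. The limit on day 17 given above applies here.

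**Figure D3:**
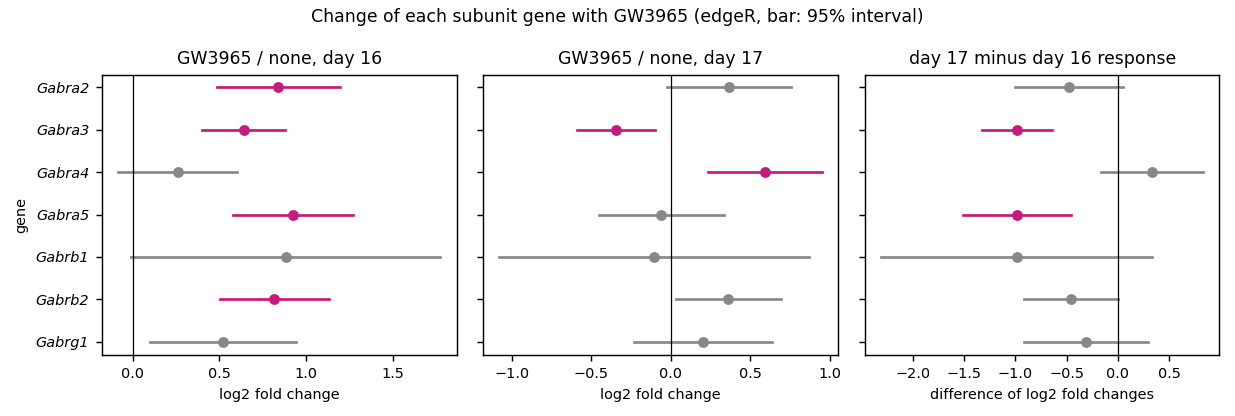
Log2 fold change with GW3965 over no ligand at day 16 (left) and day 17 (middle), and the day 17 minus day 16 difference of those changes (right), for each gene, with points for the edgeR estimate, bars for 95% intervals and magenta for an adjusted p below 0.05. All 7 points lie right of 0 at day 16. At day 17 Gabra3, Gabra5 and Gabrb1 lie left of 0, and of these only Gabra3 is magenta.

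With GW3965 at day 16, 4 of the 7 genes rose and 0 fell, where 13% of the tested genes rose and 18.7% fell (31.7% in all). The genes that rose were Gabra5, Gabra2, Gabrb2 and Gabra3. Without either of the 2 GW3965 libraries the count was again 4 of 7, although over all genes it was 3606 without GW3965 replicate 2, against 5446 with both. The 7 genes together summed to 198 and 194 CPM with GW3965, against 117 and 122 CPM without ligand. Gabra5 had 29.4 and 32.9 CPM with GW3965, against 16.3 and 16.5 CPM without ligand, a 1.90-fold rise (0.93 ± 0.166, edgeR adjusted p = 0.000252). Gabra2 had 17.5 and 17.3 CPM with GW3965, against 10.7 and 8.84 CPM without (1.79-fold, 0.84 ± 0.169, edgeR adjusted p = 0.000746). Both libraries with GW3965 lay above both without it for each of the 7 genes, including those not called. The share of all tested genes that separated in this way was not counted, so nothing particular to the 7 genes can be read from it.

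The beta2 gene and the alpha3 gene also rose. Gabrb2 had 56.5 and 60.7 CPM with GW3965, against 35.2 and 31.4 CPM without (1.76-fold, 0.82 ± 0.151, edgeR adjusted p = 0.000322). Gabra3 had 67.2 and 57.1 CPM with GW3965, against 35.1 and 44.4 CPM without (1.56-fold, 0.64 ± 0.114, edgeR adjusted p = 0.000228). The other 3 genes did not pass. Gabrg1 had 12.8 and 12.98 CPM with GW3965, against 9.10 and 8.89 CPM without (0.52 ± 0.201, edgeR adjusted p = 0.0549), and 5 of the alternative settings called it. Gabrb1 had 56 and 47 reads with GW3965, against 18 and 34 without (0.88 ± 0.427, edgeR adjusted p = 0.130). Gabra4 had 12.6 and 11.8 CPM with GW3965, against 9.51 and 10.8 CPM without (0.26 ± 0.165, edgeR adjusted p = 0.253).

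**Figure D4:**
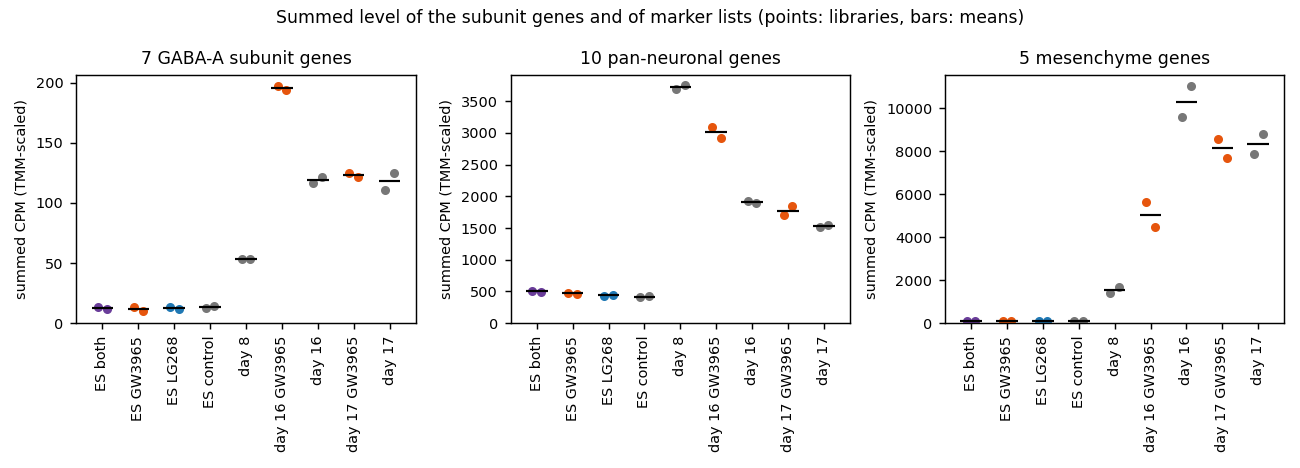
Summed CPM (y axis, its own scale in each panel) of the 7 subunit genes, 10 pan-neuronal genes and 5 mesenchyme genes in 18 libraries of 9 groups (x axis), where points are libraries and bars are means of 2. At day 16 the GW3965 libraries are above those without ligand for the subunit and pan-neuronal genes and below them for the mesenchyme genes.

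Cell type markers moved with this result. All 10 pan-neuronal genes rose with GW3965 at day 16, with sums of 3091 and 2925 CPM against 1920 and 1887 CPM without ligand, a ratio of 1.58 beside 1.64 for the 7 subunit genes. All 5 mesenchyme genes fell (5634 and 4455 CPM with GW3965, 9605 and 11034 CPM without), and 3 of 5 astrocyte genes fell (460 and 305 CPM with GW3965, 756 and 807 CPM without). No gene of these 3 lists was at 0 in a day 16 library. Rises were not limited to neuronal lists. The endoderm genes summed to 245 and 233 CPM with GW3965 and to 141 and 129 CPM without, a ratio of 1.77 (2 of 4 higher, 1 lower). The endothelial genes had a ratio of 1.36 (2 of 3 higher, 1 lower), and their libraries overlapped. Per 1000 CPM of pan-neuronal genes, the subunit genes made 65.2 ± 1.78 CPM with GW3965 and 62.6 ± 2.76 CPM without (SD, n = 2 each), a difference smaller than the SD without ligand. The part of these marker changes in the subunit result was not tested.

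With GW3965 at day 17, 1 of the 7 genes rose and 1 fell, where 17.2% of the tested genes rose and 18% fell (35.2% in all). Gabra4 had 15.4 and 14.8 CPM with GW3965, against 9.95 and 10.03 CPM without ligand (1.51-fold, 0.59 ± 0.171, edgeR adjusted p = 0.0104). Gabra3 had 43.4 and 37.6 CPM with GW3965, against 47.3 and 55.6 CPM without, and fell by 0.34 ± 0.117 (1.27-fold lower, edgeR adjusted p = 0.0283). Both calls turned on single libraries. Gabra4 missed the threshold without day 17 GW3965 replicate 1 (edgeR adjusted p = 0.0544) or day 17 replicate 1 (0.0592), and Gabra3 without day 17 GW3965 replicate 2 (0.209) or day 17 replicate 2 (0.262).

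Of the genes that GW3965 raised at day 16, Gabra5 had 7.81 and 10.3 CPM with GW3965 at day 17, against 8.96 and 10.03 CPM without (-0.06, edgeR adjusted p = 0.843), and its groups overlapped. Gabra2 had 7.95 and 9.84 CPM with GW3965, against 7.09 and 6.71 CPM without (0.37, edgeR adjusted p = 0.137). Gabrb2 had 37.6 and 36.5 CPM with GW3965, against 26.6 and 31.3 CPM without (0.36 ± 0.159, edgeR adjusted p = 0.0828). For Gabra2 and Gabrb2 the GW3965 libraries lay above the others without passing the test. The pan-neuronal sum was 1701 and 1851 CPM with GW3965 and 1512 and 1548 CPM without, with 4 of 10 genes higher and 3 lower. The mesenchyme sum was 8578 and 7709 CPM with GW3965 and 7880 and 8796 CPM without. The astrocyte sum was 2046 and 1519 CPM with GW3965 and 2520 and 2909 CPM without (1 of 5 higher, 3 lower). The part of these marker changes in the day 17 values was not tested.

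The difference between the 2 responses was tested directly. A lower response here is a lower log2 change, whatever its sign. Of the 7 genes, 2 had a lower response at day 17 than at day 16 and 0 a higher one. Of the tested genes, 17% had a lower and 20% a higher response (37% in all). The response of Gabra3 was lower by 0.98 ± 0.163 on the log2 scale (edgeR adjusted p = 9.49e-05) and that of Gabra5 by 0.98 ± 0.252 (edgeR adjusted p = 0.00438). Gabra3 changed direction, from 0.64 at day 16 to -0.34 at day 17. Neither call was lost under an alternative setting or without any single library. The other 5 genes had differences of -0.99 to 0.34 and did not pass, with Gabrb2 at -0.45 (edgeR adjusted p = 0.112). Markers moved with this difference: 9 of 10 pan-neuronal genes had a lower response at day 17 and 1 a higher one, with a median difference of -0.67 beside -0.47 for the 7 subunit genes. Of 5 mesenchyme genes, 4 had a higher response and 0 a lower one. The part of these markers in the difference was not tested.

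In undifferentiated ES cells, 1 of the 7 genes was called in the 3 ligand comparisons. GW3965 alone changed 0 of the 7 genes, with 0 also at an unadjusted p below 0.05 and 0 by DESeq2 or limma-voom, where 0.309% of the tested genes rose and 0.0117% fell (0.32% in all). LG268 alone changed 0 of the 7 (0 also by DESeq2 or limma-voom), where 0.518% rose and 0.332% fell (0.851% in all). At an unadjusted p below 0.05, Gabrb2 was the 1 gene that LG268 reached (-0.79 ± 0.370, edgeR adjusted p = 0.512). Both ligands together lowered 1 of the 7 genes and raised 0, where 6.47% of the tested genes fell and 4.83% rose (11.3% in all).

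That gene was Gabrb2, with 14 and 7 reads with both ligands, 69 and 14 with GW3965, 38 and 12 with LG268 and 30 and 56 in ES control. Its level was 0.786 and 0.367 CPM with both ligands and 1.32 and 2.21 CPM in ES control, a fall by 1.64 ± 0.456 (3.12-fold lower, edgeR adjusted p = 0.0246). The call was lost with limma-voom (adjusted p = 0.0824), in a fit of the groups compared alone (0.112), and without both-ligand replicate 1 (0.0508), both-ligand replicate 2 (0.151) or ES control replicate 2 (0.247). Its GW3965 libraries, at 1.69 and 0.718 CPM, and its LG268 libraries, at 1.39 and 0.573 CPM, spread over much of this range. The summed level of the 7 genes was 13.5 and 12.1 CPM with both ligands, 13.0 and 10.1 CPM with GW3965, 13.7 and 11.7 CPM with LG268 and 12.4 and 14.3 CPM in ES control.

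Gabre and Gabrp, which encode rarer subunits of the same family, went the other way at the first step. Gabre had 12.9 and 10.2 CPM in ES control and Gabrp had 7.38 and 8.06 CPM there, and their log2 changes at day 8 were -3.21 and -5.56 (edgeR adjusted p = 2.48e-11 and 2.64e-11). Gabrp rose with GW3965 at day 16 (log2 change 0.85, edgeR adjusted p = 0.00878) and fell with it by 0.68 at day 17 (edgeR adjusted p = 0.0300). Its day 16 libraries with GW3965 were far apart, at 3.54 and 6.49 CPM, against 2.68 and 2.86 CPM without ligand. Gabre had 3.78 and 2.63 CPM with GW3965 at day 16, against 4.12 and 4.71 CPM without, and was not called lower.

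Genes that make, pack, take up and break down GABA rose at day 8 in 6 of 9 cases and fell in 1, beside 39.7% and 39.1% of all tested genes. Gad1 and Gad2 encode the enzymes that make GABA from glutamate, and Slc32a1 the carrier that loads it into vesicles. All 3 rose at day 8 (log2 changes of 1.09, 6.90 and 5.14) and fell between day 8 and day 16 (-0.39, -0.99 and -0.64), when the alpha genes rose. With GW3965 at day 16, 5 of the 9 rose and 0 fell, beside 13% and 18.7% of all tested genes. Gad1 averaged 83.8 ± 2.57 CPM with GW3965 and 40.6 ± 0.902 CPM without (1.05, edgeR adjusted p = 3.97e-08), and Gad2 and Slc32a1 rose by 0.83 and 0.84. At day 17 Gad1 went the other way, averaging 23.3 ± 1.77 CPM with GW3965 and 35.3 ± 0.577 CPM without (-0.60, edgeR adjusted p = 3.98e-05).

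The 2 chloride transporters set the driving force of the channel, Slc12a2 (NKCC1) by bringing chloride in and Slc12a5 (KCC2) by carrying it out. Slc12a5 averaged 4.51 ± 0.220 CPM in ES control, 45.2 ± 2.49 CPM at day 8, 59.0 ± 3.36 CPM at day 16 and 36.6 ± 2.00 CPM at day 17 (SD, n = 2 each). The last step was a fall by 0.69 (edgeR adjusted p = 4.41e-06), and Slc12a2 rose by 0.49 in it. With GW3965 at day 16 Slc12a5 averaged 100.5 ± 4.23 CPM, a log2 change of 0.77 (edgeR adjusted p = 2.99e-06), and Slc12a2 rose by 0.32 (edgeR adjusted p = 0.00551). At day 17 both fell with GW3965, Slc12a5 by 0.28 and Slc12a2 by 0.38 (edgeR adjusted p = 0.0374 and 0.00166). With GW3965 the KCC2 and NKCC1 genes moved in the same direction at each of the 2 days.

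Among 18 genes for scaffold and trafficking of the receptor, 10 rose and 1 fell with GW3965 at day 16, beside 13% and 18.7% of all tested genes. At day 17, 2 rose and 8 fell, beside 17.2% and 18% of all. Gphn, which encodes the gephyrin scaffold under inhibitory synapses, rose by 0.27 at day 16 and fell by 0.26 at day 17 (edgeR adjusted p = 0.00231 and 0.00549). Hap1, a transport adaptor for these receptors, and Iqsec3, a partner of gephyrin, rose by 0.93 and 0.92 at day 16 and fell by 0.38 and 0.56 at day 17. Of these 18 genes, 5 fell with both ligands in ES cells and 0 rose, beside 6.47% and 4.83% of all. The metabotropic GABA-B receptor list had 3 of 5 genes higher and 0 lower at day 16 with GW3965 (Gabbr1, Gabbr2 and Kctd8), and 0 higher and 1 lower at day 17. The glycine receptor, the other main inhibitory chloride channel, had 2 of 5 subunit genes higher and 0 lower at day 16 (Glra2 and Glrb) and 0 higher and 1 lower at day 17. The shares of all genes called are the same as for the scaffold list.

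Across the 9 group means of log2 CPM, the genes whose pattern was most like each subunit gene were picked by Pearson's r, as a description of points that share libraries and depth. For Gabra2 these were Armc2 (r = 0.997), Rit2 (0.997) and Slc8a3 (0.996), for Gabra3 Gpr26 (0.995), Gsto1 (0.994) and Frmpd4 (0.994), and for Gabra5 Rasgrf2 (0.993), Lrp1b (0.991) and Inpp5j (0.991). Gabra4 was closest to Gm2115 (0.998), Krt5 (0.998) and Dsc1 (0.997), and Gabrb1 to Jph4 (0.996), Zcchc12 (0.996) and Wsb2 (0.996). Gabrb2 was closest to Fam20c (0.998), Clstn2 (0.998) and Tmem255a (0.997), and Gabrg1 to Elfn2 (0.999), Omg (0.999) and 0610040J01Rik (0.997). Among the 7 genes themselves the most alike pair was Gabrg1 and Gabra4 (0.991) and the least alike Gabrb2 and Gabra3 (0.770). The 4 genes of the chromosome 5 cluster had r of 0.924 to 0.991 with each other. This was not particular to the cluster. With these 4 genes, Gabra3 had r of 0.906 to 0.982, Gabra5 0.911 to 0.961 and Gabrb2 0.811 to 0.953, all on other chromosomes.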

How the data were processed

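RNA of 18 libraries (9 groups of 2) was given as read counts per gene symbol. The authors deposited raw counts; for them the submitters' processing notes name the build mm10 and the tools TopHat2 2.0.7, Cufflinks 2.0.2, HTSeq 0.6.0 and Cuffdiff 2.0.2, without order, strand or annotation. The 5 summary lines of each file were left out (no-feature reads were 42.1 to 43.4% of the day 17 files and 62.8 to 65.9% of the other 14). These shares do not have the same base, because only the day 17 totals include multiply aligned reads.

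In R 4.3.3, edgeR 4.0.16 kept 17166 genes (filterByExpr), scaled by TMM (factors 0.912 to 1.11) and fitted 9 groups in 1 quasi-likelihood model for 9 comparisons. Tests were two-sided with Benjamini-Hochberg adjustment over all tested genes, and a gene was called at an adjusted p below 0.05. Means are ± SD and log2 changes ± SE; intervals of reads cover counting error only. CPM per kb used GENCODE M21 exon lengths, and promoters came from RefSeq. On simulated counts for GW3965 at day 16 (17166 genes), 18% of 50 genes changed 1.25-fold were recovered, 88% at 1.5-fold and 94% at 2-fold. Of 161 calls, 11 were false. These rates describe the simulated counts only. Whether they hold at the wide spread of the 2 real libraries with GW3965 at day 16 (chi-square per gene of 39.9) was not tested.

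The members and gene lists were chosen with earlier results of these data known. Every member is named, and some other subunit genes are not reported here. From each list the named genes are Gad1, Gad2, Slc32a1, Gphn, Slc12a2 and Slc12a5 plus up to 4 called genes with the largest changes at 1 CPM or more, and patterns were compared among genes of at least 1 CPM with an offset of 0.5 CPM. Alternatives were other filters, DESeq2 1.42.0, limma 3.58.1 (voom), a replicate block, fits of fewer libraries and leaving out each library. Replicate numbers did not pair libraries (36 correlations, -0.135 to 0.0991).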

Additional observations from a re-analysis of the deposited data

Results flagged for a closer look

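The effect of GW3965 differed between days 16 and 17 for 2 of the 7 subunit genes by a test of the difference itself, and 0 of the others passed. For Gabra3 the day 17 minus day 16 difference of log2 changes was -0.98 (edgeR adjusted p = 9.49e-05), with changes of -0.34 at day 17 and 0.64 at day 16. For Gabra5 the difference was also -0.98 (edgeR adjusted p = 0.00438), with changes of -0.06 at day 17 and 0.93 at day 16. Over the same contrast 9 of 10 pan-neuronal genes had a lower response at day 17 and 4 of 5 mesenchyme genes a higher one; their part in the difference was not tested. The labels do not give the length of GW3965 exposure, but by the wording of the file names it began at day 8 for the day 16 group and lasted 24 h for the day 17 group, and only the day 17 files list multiply aligned reads. The day cannot be told apart from these differences.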

How the results depend on the processing

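Of the values of the 7 genes under the alternatives, 731 kept their direction and side of the threshold, 21 lost and 11 gained a call, and 0 reversed; a change of sign in a value not called in either fit was counted as kept. The count of the 7 genes called was 6 between day 8 and day 16 under every setting and without any 1 library, and 4 or 5 for GW3965 at day 16. With both ligands in ES cells it was 0 in a fit of the groups compared and 0 under limma-voom (0 to 1 without 1 library). It was 3 to 5 without 1 library at day 8, 1 to 3 at day 17 against day 16, and 1 for GW3965 at day 17 without any of the 4 libraries, against 5, 3 and 2 with all, and GW3965 at day 17 gave 3 without a filter, with limma-voom or in a fit of the groups compared, because Gabrb2 then passed (adjusted p = 0.0101, 0.0162 and 0.0157). The difference between the GW3965 responses gave 3 of 7 under the same settings (Gabrb2, adjusted p = 0.0206, 0.0218 and 0.0176) and 2 otherwise. Gabrg1 passed for GW3965 at day 16 without a filter, with DESeq2 size factors, DESeq2, limma-voom and the fit of the groups compared (adjusted p = 0.0290, 0.0436, 0.0315, 0.00539 and 0.0132). Gabrb1 at day 8 missed with DESeq2 (0.0589) and in the fit of the groups compared (0.0537). The cause of these changes was not tested. With a replicate block, the counts were 0, 0, 1, 5, 6, 3, 4, 2 and 2, as without it. DESeq2 size factors moved the median of all genes by at most 0.0411 on the log2 scale. Over all genes, the number called in ES cells with GW3965 was 55. It was 164 without a filter, 476 in a fit of the groups compared, and lower without some single libraries. With LG268 it was 146 (336 without a filter, 230 with DESeq2, 928 in the fit of the groups compared, lower without each single library). With both ligands it was 1939 (452 in the fit of the groups compared, lower without some single libraries). With GW3965 at day 16 it was 5446, and 3606 without GW3965 replicate 2. Low counts limit Gabrb1 at each stage and Gabra2, Gabrb2 and Gabrg1 in ES cells.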
